A study of Homo sapiens with 36 samples.

Results

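The comparison described here sets ATF4 knockout cells against wild-type cells, both after 16 h with a dimerizer that switches on an engineered PERK kinase. It uses the 6 libraries that the labels place at 16 h, 3 per genotype, out of 36 libraries in the series, and reads all 19043 genes that passed a filter on low counts. All cells were U2OS, a human osteosarcoma line, carrying Dmr-PERK, a fusion of the PERK kinase with a drug-inducible dimerization domain. The wild-type group and the ATF4KO group therefore differ by genotype, and both carry Dmr-PERK and received the same dimerizer treatment, labelled Dim, for the same time. The other libraries are the same 2 genotypes untreated (0 h) or after 2, 4, 8 and 24 h of dimerizer. Cells without Dmr-PERK and untreated cells of the later times were not analysed here, and the labels do not say whether the knockout line is 1 clone. The labels describe triplicate wells without calling them independent cultures. The p-values here therefore cover the variation among these libraries, which may be technical.

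PERK is a kinase of the endoplasmic reticulum that phosphorylates the translation initiation factor eIF2, which lowers general protein synthesis and starts the integrated stress response. Under this response the mRNA of ATF4, a basic leucine zipper transcription factor, is translated more, and ATF4 pairs with C/EBP family proteins to activate genes of amino acid synthesis and uptake, tRNA charging, redox defence and feedback on the response itself. Such pairs bind a composite element with the core letters TGATGNAA, known as the C/EBP-ATF response element or amino acid response element. A dimerizer acting on engineered PERK starts the pathway without an agent that misfolds proteins.

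The 6 libraries held between 8651716 and 16265056 assigned counts and between 26194 and 29353 genes with a count. Levels are CPM values, library-scaled read counts, on trimmed-mean normalised library sizes, which compare a gene between samples but not one gene with another. Differences are log2 values, knockout minus wild type, from 1 edgeR quasi-likelihood fit over all 36 libraries, so that a log2 difference of 1 is a 2-fold difference. A gene was called higher or lower at a Benjamini-Hochberg adjusted p under 0.05 over all tested genes. The line showed COL1A1 (419 ± 11.3 CPM in wild type, SD, n = 3), SPARC (521 ± 14.7) and RUNX2 (27.8 ± 0.846), and also the keratins KRT8 and KRT18, while the osteoblast genes SP7, BGLAP, IBSP and TWIST1 were below the filter. Of the same osteoblast-lineage list, SPP1 was at 2.275 and COL1A2 at 0.178 CPM in wild type. KRT8 (103.5 CPM in wild type) and KRT18 (484) came from a list of 8 epithelial markers, of which KRT19 was below the filter. The others of that list, EPCAM, CDH1, ESRP1, CLDN4 and KRT5, were at 2.575, 4.629, 4.208, 2.181 and 0.0253 CPM in wild type. Of 8 blood cell markers, 7 were below the filter, and the summed level of the list was at most 0.309 CPM in any library. Of 8 endothelial and neural markers, CDH5, KDR, SOX10 and GFAP were below the filter. PECAM1 and VWF were at 0.422 and 0.387 CPM in wild type, and TUBB3 and SNAP25 at 17.25 and 5.78 CPM. In bulk RNA, fewer cells of a kind and less RNA per cell cannot be told apart.

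At 16 h, 4093 genes (21.5% of those tested) were higher in the knockout and 2804 (14.7%) were lower, and the median difference over all genes was 0.04. In a fit on the 6 libraries alone the counts were 3264 higher and 3276 lower. The genes lower in the knockout differed by more: their median size was 0.48 against 0.30 for the genes that were higher. At least a 2-fold difference was seen for 661 lower genes (3.47% of those tested) and 454 higher genes (2.38%). Above a log2 size of 3 there were 120 lower and 44 higher genes. The 661 lower genes summed to between 32090 and 32330 CPM in the wild-type libraries and to between 9063 and 9215 CPM in the knockout libraries. The 454 higher genes summed to between 2082 and 2149 CPM in wild type and to between 5596 and 5606 CPM in the knockout.

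**Figure D1:**
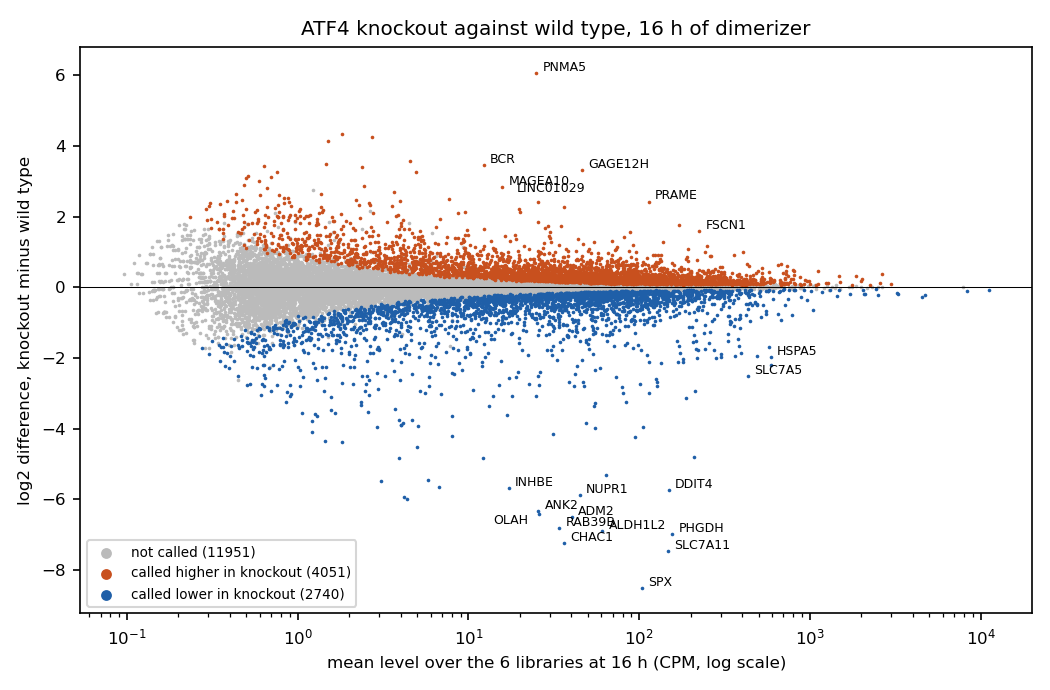
Log2 difference at 16 h (vertical axis, knockout minus wild type) against the mean level over the 6 libraries (horizontal axis, CPM, log scale) for 18742 genes, with blue for called lower, orange for called higher and grey for not called; 301 genes with 3 or fewer counts in a genotype are left out. The points called lower reach further from 0 than those called higher, down to SPX at -8.50, while PNMA5 stands highest at 6.07.

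Promoter letters are given first for 9 of the genes lower in the knockout, because the C/EBP-ATF element is the sequence the pathway is known for. Each line is from the RefSeq promoter tables (GRCh38.p14), 5′ to 3′ on the gene's strand, with the letters TGATGNAA, or TTNCATCA for the other strand, in capitals. The windows searched ran from 250 bases before to 50 after a gene's start, and each line below ends before the start.
CHAC1: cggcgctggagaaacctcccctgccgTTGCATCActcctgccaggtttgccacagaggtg
ASNS: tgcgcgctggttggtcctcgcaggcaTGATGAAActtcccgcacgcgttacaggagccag
JDP2: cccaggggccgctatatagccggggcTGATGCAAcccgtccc
ANK2: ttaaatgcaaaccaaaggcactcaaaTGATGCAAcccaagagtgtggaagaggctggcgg
HERPUD1: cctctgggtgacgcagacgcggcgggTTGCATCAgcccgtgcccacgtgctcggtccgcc
SLC1A5: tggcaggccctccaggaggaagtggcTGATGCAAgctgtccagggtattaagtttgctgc
BCAT1: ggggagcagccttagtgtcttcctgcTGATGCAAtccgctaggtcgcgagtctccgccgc
AARS: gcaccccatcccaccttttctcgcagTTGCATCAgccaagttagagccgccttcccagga
ATF3: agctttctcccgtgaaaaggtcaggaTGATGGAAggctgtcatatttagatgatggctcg

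These stretches are chr15:40953236-40953295 on the plus strand for CHAC1, chr7:97872443-97872502 on the minus strand for ASNS, and chr14:75427980-75428021 on the plus strand for JDP2. They are chr4:112817957-112818016 (plus) for ANK2, chr16:56931940-56931999 (plus) for HERPUD1 and chr19:46784878-46784937 (minus) for SLC1A5. They are chr12:24949116-24949175 (minus) for BCAT1, chr16:70289660-70289719 (minus) for AARS (AARS1 in RefSeq) and chr1:212565190-212565249 (plus) for ATF3. The letters began 209 bases before the start in CHAC1, 68 in ASNS, 16 in JDP2 and 48 in BCAT1. CHAC1, HERPUD1 and AARS hold TTGCATCA, ANK2, SLC1A5, BCAT1 and JDP2 hold TGATGCAA, ASNS holds TGATGAAA, and ATF3 holds TGATGGAA. Of 63 named genes lower by at least 2-fold, 47 had a promoter window and 11 held the letters before the start. Those 11 include HRK and BCL2A1, whose letters are not printed here.

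Across the table, 57 of the 376 genes lower by at least 2-fold that had a promoter window held these letters (15.2%). Matches in this and the following shares may lie anywhere in a window, also after the start, unlike the 11 above. The share was 3.53% among the genes higher by at least 2-fold (9 of 255), 2.51% among genes not called (180 of 7172) and 2.96% among all tested genes with a window (361 of 12216). Over all 35116 promoter windows of the table, 1270 (3.62%) held them. The mean number of windows per gene was 1.53 for the lower, 1.58 for the higher and 1.42 for the uncalled genes. A match is a description of the letters and was not tested as a binding site.

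The targeted gene came first. ATF4 mRNA (chromosome 22, 39519695 to 39522685) stood at 667.3, 694.5 and 687.2 CPM in wild-type replicates 1 to 3 and at 713.3, 751.4 and 729.7 CPM in the knockout replicates. All 3 knockout libraries lay just above all 3 wild-type libraries, a log2 difference of 0.10 ± 0.03 (SE; edgeR quasi-likelihood adjusted p = 0.0088). Groups that did not overlap were found for 45.5% of all tested genes. That call was lost in a fit on the 6 libraries alone (0.06, adjusted p = 0.0883), without the filter on low counts (ATF4 adjusted p = 0.0564), without wild-type replicate 1 (0.0717) and without knockout replicate 2 (0.0819). Untreated, ATF4 mRNA was lower in the knockout by 0.26 on the log2 scale, at 266 against 318 CPM. The signed difference, knockout minus wild type, moved up by 0.35 from untreated to 16 h and changed sign (edgeR quasi-likelihood adjusted p = 2.72e-08). Gene-level counts of ATF4 mRNA do not show whether the reading frame is disrupted, so the label is not checked by this gene.

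Among 12 transcription factors of the stress response, 9 were lower in the knockout and 2 were higher, with a median of -1.36; of all tested genes 14.7% were lower and 21.5% were higher. NUPR1, a small stress-induced chromatin protein, was at 87.5, 88.7 and 88.0 CPM in wild type and at 1.76, 1.06 and 1.49 CPM in the knockout. It differed by -5.87 ± 0.25 (adjusted p = 7.85e-33). JDP2, a basic leucine zipper repressor, differed by -4.16 ± 0.17, from 59.1 ± 1.53 CPM (SD, n = 3) to 3.22 ± 0.754 CPM. Every knockout library lay far below every wild-type library for both genes. CEBPB, a C/EBP partner of ATF4, was at 139.3, 143.4 and 138.3 CPM against 41.7, 44.4 and 42.2 CPM, a difference of -1.72 ± 0.06.

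ATF3, a stress-induced factor of the ATF family, was at 122.8, 130.2 and 120.4 CPM in wild type and at 39.5, 43.15 and 37.37 CPM in the knockout (-1.64 ± 0.13). DDIT3, which encodes CHOP, was at 73.5, 77.0 and 66.9 CPM against 25.5, 23.9 and 24.1 CPM (-1.55 ± 0.08, adjusted p = 9.78e-21). ATF5, which is also translated more under eIF2 phosphorylation, was at 59.1, 62.5 and 60.4 CPM against 23.0, 22.9 and 24.1 CPM (-1.38 ± 0.07). For each of the 3 genes every knockout library lay below every wild-type library. NFIL3 differed by -1.33 ± 0.06 and CEBPG, another C/EBP partner, by -0.93 ± 0.05. BACH1, a repressor of antioxidant genes, was higher by 0.21 ± 0.04. CEBPD, the member not called, was named after its value was seen (-0.06 ± 0.19).

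**Figure D2:**
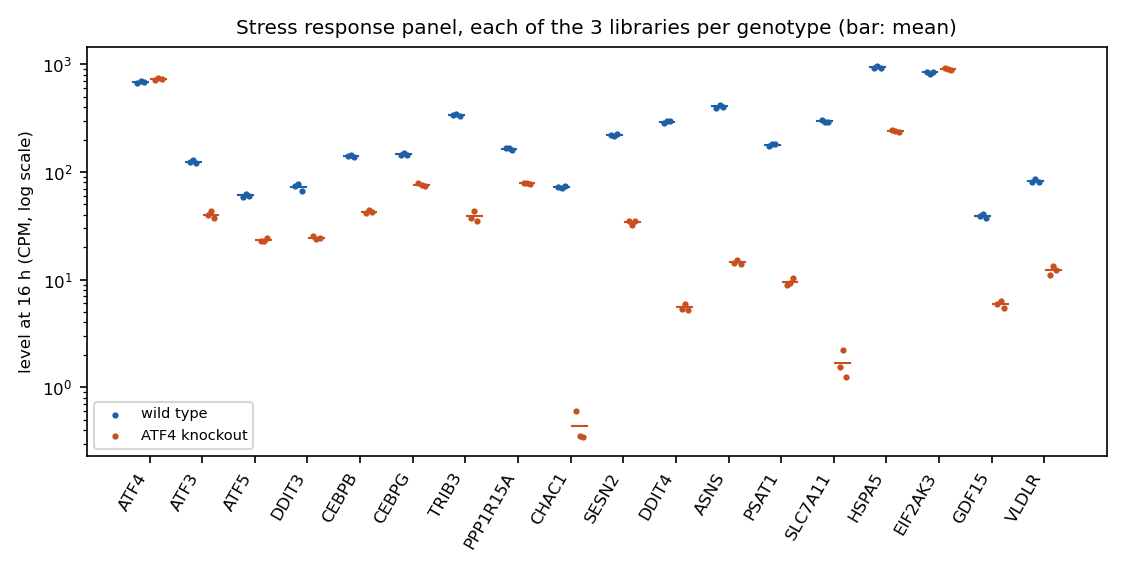
Level at 16 h (vertical axis, CPM, log scale) of 18 stress response genes in each of the 3 wild-type (blue) and 3 knockout (orange) libraries, with a bar at each mean. ATF4 and EIF2AK3 sit slightly higher in the knockout, the other 16 genes sit lower, and the widest gaps are those of CHAC1, SLC7A11 and DDIT4.

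Of 15 feedback and effector genes, 11 were lower and 2 were higher, against 14.7% and 21.5% of all tested genes. Their median was -1.06. CHAC1, a gamma-glutamyl cyclotransferase that degrades glutathione, was at 72.7, 71.1 and 73.8 CPM in wild type and at 0.608, 0.352 and 0.343 CPM in the knockout (-7.25 ± 0.45, adjusted p = 1.1e-31). DDIT4, an inhibitor of mTORC1 signalling on chromosome 10 (72273920 to 72276036), was at 283.8, 295.6 and 300.1 CPM against 5.33, 5.98 and 5.26 CPM (-5.74 ± 0.16). Knockout libraries were near the floor for CHAC1 and low but well counted for DDIT4. TRIB3, a pseudokinase that feeds back on ATF4, was at 337.9, 343.5 and 334.0 CPM against 37.5, 43.7 and 34.9 CPM (-3.14 ± 0.06). SESN2, a leucine-sensing inhibitor of mTORC1, was at 222.4, 214.7 and 224.6 CPM against 35.4, 31.9 and 35.2 CPM (-2.68 ± 0.07). PPP1R15A, the GADD34 subunit that directs dephosphorylation of eIF2, was at 167.4, 166.9 and 158.8 CPM against 78.9, 79.6 and 77.9 CPM (-1.06 ± 0.06). In all 3 genes the groups were far apart relative to the spread within them.

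VLDLR, a lipoprotein receptor, was lower by 2.78 on the log2 scale, at 12.2 ± 1.06 against 82.8 ± 2.91 CPM (SD, n = 3). RAB39B, a small GTPase of vesicle traffic, differed by -6.81 ± 0.33, from 67.6 ± 3.68 to 0.639 ± 0.361 CPM. The exceptions were TRIB2 (0.72 ± 0.10) and TXNIP (0.29 ± 0.09), both higher in the knockout, and the TXNIP call was lost with DESeq2 (adjusted p = 0.0689) and without knockout replicate 1 (adjusted p = 0.129). Of 12 genes for eIF2 kinases, eIF2 and eIF2B subunits, 7 were higher and 3 were lower, against 21.5% and 14.7% of all tested genes. EIF2S2, the beta subunit of eIF2, was lower by 0.91 on the log2 scale, at 191 ± 12.3 against 360 ± 8.73 CPM. EIF2AK3, the PERK gene, was at 852.7, 819.7 and 848.0 CPM against 932.8, 898.5 and 880.4 CPM (0.11 ± 0.03). Its counts may include reads of the Dmr-PERK construct, which were not separated.

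Among 10 measured secreted stress factors, 8 were lower and 2 were higher, all by at least 2-fold. The shares of all tested genes past 2-fold were 3.47% lower and 2.38% higher. GDF15, a stress cytokine that acts on appetite, was at 39.4, 41.0 and 37.7 CPM in wild type and at 5.94, 6.33 and 5.49 CPM in the knockout (-2.73 ± 0.15). VEGFA, the angiogenic growth factor, was at 292 ± 7.04 CPM against 67.3 ± 1.88 CPM (-2.12 ± 0.06). ADM2 (adrenomedullin 2) differed by -6.49 ± 0.31 and INHBE, an inhibin beta subunit, by -5.67 ± 0.33. The opposite direction was seen for LIF, an interleukin 6 family cytokine, at 44.2 ± 1.62 CPM in wild type and 118 ± 2.75 CPM in the knockout (1.41 ± 0.05), and for INHBA (1.15 ± 0.07). SPX, which encodes the peptide spexin, had the largest difference among genes with more than 3 counts in each genotype. SPX stood at 202.8, 216.1 and 202.7 CPM in wild type and at 0.743, 0.586 and 0.229 CPM in the knockout (-8.50 ± 0.36, adjusted p = 2.07e-40).

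Genes of amino acid synthesis were among the lowest in the knockout: 11 of 16 were lower, 7 of them by at least 2-fold (3.47% of all tested genes), and 1 was higher. PHGDH, which starts serine synthesis, was at 295.1, 313.4 and 319.1 CPM in wild type and at 2.43, 2.46 and 2.40 CPM in the knockout (-6.99 ± 0.17). PSAT1, the next enzyme of that pathway, was at 174.7, 181.0 and 182.1 CPM against 8.98, 9.38 and 10.3 CPM (-4.24 ± 0.08). ASNS, asparagine synthetase (chromosome 7, 97852118 to 97872542), was at 391.6, 422.4 and 404.1 CPM against 14.4, 15.2 and 13.8 CPM (-4.81 ± 0.08). The 3 knockout libraries were within a narrow band for each of these enzymes. BCAT1, a branched-chain aminotransferase, was lower by 2.03 on the log2 scale. GLUL, glutamine synthetase, was the exception, at 0.722, 0.988 and 1.05 CPM in wild type and 9.12, 9.03 and 8.69 CPM in the knockout (3.26 ± 0.27). GLUL was already higher in the untreated knockout, by 2.06 ± 0.10.

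In folate one-carbon metabolism 5 of 13 genes were lower and 4 were higher, against 14.7% and 21.5% of all tested genes. The median of the list was -0.09. ALDH1L2, a mitochondrial folate dehydrogenase, differed by -6.90 ± 0.26, from 121 ± 3.11 to 1.03 ± 0.228 CPM. The mitochondrial enzymes SHMT2 (350 ± 6.24 against 86.1 ± 3.62 CPM, -2.02 ± 0.04), MTHFD2 (622 ± 9.17 against 172 ± 1.5 CPM, -1.86 ± 0.04) and MTHFD1L (-0.69 ± 0.04) were lower too. The cytosolic enzyme MTHFD1 (0.15 ± 0.03), thymidylate synthase TYMS (0.28 ± 0.03) and FPGS (0.32 ± 0.05), which adds glutamates to folates, were higher.

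In the list for cystine uptake, transsulfuration and glutathione, 11 of 13 genes were lower and 2 were higher. The shares of all tested genes were 14.7% and 21.5%. SLC7A11, the cystine-glutamate antiporter (chromosome 4, 138164097 to 138242349), was at 301.1, 291.8 and 290.5 CPM in wild type and at 1.55, 2.23 and 1.26 CPM in the knockout (-7.47 ± 0.20, adjusted p = 5.84e-43). CTH and CBS, the transsulfuration enzymes that make cysteine from homocysteine, differed by -3.98 ± 0.09 and -3.95 ± 0.09. GCLM, the modifier subunit of the enzyme that limits glutathione synthesis, differed by -1.27 ± 0.05. GGCT (0.23 ± 0.04) and AHCY (0.12 ± 0.03) were higher, and AHCY lost its call in a fit on the 6 libraries alone and without knockout replicate 2 (adjusted p = 0.0589). These 2 differences are small beside those of the lower members.

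Of 17 measured amino acid transporters, 11 were lower and 2 were higher, against 14.7% and 21.5% of all tested genes. Their median was -0.89, or -0.65 with SLC7A8, which had 3 or fewer counts in a genotype, set at its bound. SLC7A5, the large neutral amino acid transporter LAT1, was at 744.1, 720.6 and 747.5 CPM in wild type and at 128.3, 137.1 and 125.0 CPM in the knockout (-2.50 ± 0.05). The glycine transporter SLC6A9 was at 90.8, 91.9 and 92.8 CPM against 6.48, 5.63 and 6.86 CPM (-3.85 ± 0.09). SLC1A4 and SLC1A5, neutral amino acid transporters, differed by -3.26 ± 0.08 and -1.99 ± 0.04. SLC36A1 (0.27 ± 0.06) and SLC7A2 (0.22 ± 0.06) were higher by far smaller amounts.

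The cytosolic tRNA synthetases, which charge tRNAs with their amino acids, differed in direction. Of 20, 12 were lower, 9 of them by at least 2-fold, and 7 were higher. Among all tested genes 14.7% were lower, 3.47% by at least 2-fold, and 21.5% were higher. GARS, the glycine enzyme, was at 960.7, 993.7 and 945.9 CPM against 210.3, 220.6 and 205.1 CPM (-2.19 ± 0.03). YARS, MARS and AARS, for tyrosine, methionine and alanine, differed by -1.98 ± 0.03, -1.94 ± 0.03 and -1.89 ± 0.03. Against these, KARS (lysine, 0.22 ± 0.03), FARSB (a phenylalanine subunit, 0.22 ± 0.04) and RARS (arginine, 0.15 ± 0.03) were higher. Of the 17 mitochondrial tRNA synthetases, 5 were higher, or 3 without knockout replicate 1, not far from the 21.5% of all tested genes. The other 12 were not called. IARS2 (0.27 ± 0.03), CARS2 (0.35 ± 0.10) and SARS2 (0.49 ± 0.10) were among the 5 higher.

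**Figure D3:**
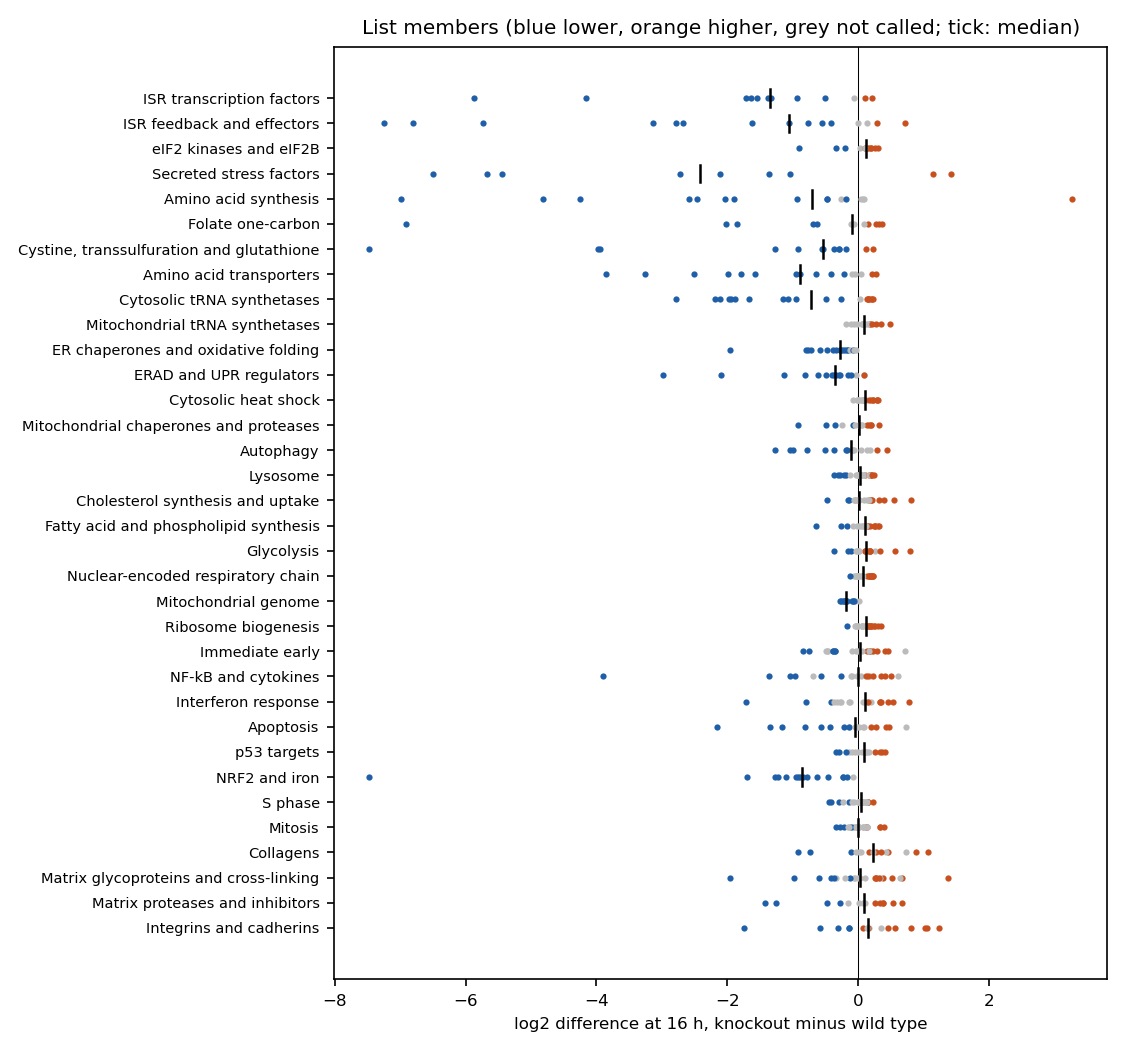
Log2 difference at 16 h (horizontal axis, knockout minus wild type) of each member of 34 gene lists (rows), blue for called lower, orange for called higher, grey for not called, with a tick at the list's median; members with 3 or fewer counts in a genotype are not drawn. SLC7A11, at -7.47 in the glutathione and the NRF2 and iron rows, is the point furthest to the left, and GLUL, at 3.26, the one furthest to the right.

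Genes of the endoplasmic reticulum were lower as well, mostly by less. Of 19 chaperone and oxidative folding genes 16 were lower, with a median of -0.28 against 0.04 for all genes. HSPA5, the chaperone BiP (chromosome 9, 125234853 to 125241330), was at 918.5, 973.8 and 934.5 CPM in wild type and at 244.6, 239.6 and 237.7 CPM in the knockout (-1.97 ± 0.03, adjusted p = 3.01e-38). It was the only called member of that list past 2-fold, and CANX (-0.76 ± 0.03), HYOU1 (-0.73 ± 0.03) and HSP90B1 (-0.47 ± 0.02) were among the others called. Of 16 genes for degradation of misfolded proteins and regulation of the unfolded protein response, 13 were lower, against 14.7% of all tested genes. HERPUD1, which helps move misfolded proteins to degradation, was at 144 ± 0.705 CPM against 18.1 ± 0.456 CPM (-2.98 ± 0.06). XBP1, the transcription factor activated by IRE1, was at 274 ± 2.76 CPM against 64.2 ± 4.92 CPM (-2.10 ± 0.05). SEL1L differed by -1.13 ± 0.04 and ATF6, another sensor of the unfolded protein response, by -0.82 ± 0.04.

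Other chaperone systems differed in direction, against 21.5% higher and 14.7% lower among all tested genes. Of 16 cytosolic heat shock genes, 8 were higher and the other 8 were not called, and HSPA8 was at 787 ± 14.6 CPM against 960 ± 14.2 CPM (0.29 ± 0.03). Of 15 mitochondrial chaperone and protease genes 5 were higher, or 3 without wild-type replicate 1 or knockout replicate 1, and 4 were lower. The lower ones included the matrix protease LONP1, at 173 ± 5.94 CPM against 90.7 ± 2.25 CPM (-0.93 ± 0.04), and the chaperone HSPA9 (-0.50 ± 0.03). The median of the mitochondrial list, 0.01, changed sign under other scalings.

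Autophagy genes were called lower in 8 of 17 cases and higher in 2. MAP1LC3B, a ubiquitin-like protein of the autophagosome membrane, was at 367 ± 8.52 CPM in wild type and 152 ± 8.95 CPM in the knockout (-1.27 ± 0.04). The cargo receptor SQSTM1 differed by -1.05 ± 0.03 and GABARAPL1 by -0.79 ± 0.07. ATG12 (0.43 ± 0.04) and the receptor OPTN (0.29 ± 0.04) were higher. Of 23 lysosomal genes 6 were higher and 5 were lower, near the 21.5% and 14.7% of all tested genes; PSAP, a saposin precursor, differed by -0.36 ± 0.02.

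The NRF2 and iron list, which shares SLC7A11, GCLM and GCLC with the glutathione list, had 15 of 16 genes lower and a median of -0.87. The lower share of all tested genes was 14.7%. TXNRD1, thioredoxin reductase, was at 907, 882 and 858 CPM in wild type and at 283, 269 and 264 CPM in the knockout (-1.69 ± 0.04). SRXN1, which reduces oxidised peroxiredoxins, differed by -1.11 ± 0.04. NFE2L2, the gene of NRF2 itself, was at 153 ± 1.33 CPM against 85.3 ± 2.55 CPM (-0.84 ± 0.04). KEAP1, the inhibitor of NRF2, was the member not called, at -0.08 ± 0.04; both were named after their values were seen.

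Metabolic lists outside amino acids showed smaller differences. The shares among all tested genes were 21.5% higher and 14.7% lower. Of 23 cholesterol genes 7 were higher and 3 were lower, not far from those shares. HMGCS1 (0.80 ± 0.05) and LSS (0.54 ± 0.06) were the highest of the named ones. The median of the cholesterol list, 0.01, changed sign under other scalings. Of 18 fatty acid and phospholipid genes 8 were higher and 3 were lower, the latter including SREBF1 (-0.65 ± 0.05), a regulator of lipogenesis. Of 18 glycolysis genes 10 were higher, among them LDHA (715 ± 21.2 against 903 ± 12.4 CPM, 0.34 ± 0.03) and ENO2 (0.78 ± 0.05), and 3 were lower. Of 22 nuclear genes of the respiratory chain 10 were higher and 1 was lower, with a median of 0.07. Of 13 genes of the mitochondrial genome 11 were lower, with a median of -0.19 and MT-ND4 at -0.26 ± 0.02. The mitochondrial share of all counts, which includes these 13 genes, was 4.66% to 4.90% in wild type and 4.30% to 4.38% in the knockout. It is therefore not a measure separate from the list result, and the cause was not tested.

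Of 25 ribosome biogenesis genes, 13 were higher and 1, DDX10, was lower, with a median of 0.12; BOP1 differed by 0.35 ± 0.04. Of 27 S phase genes, 3 were higher, 4 were lower and 20 were not called at 16 h. Of 24 mitosis genes, 5 were higher, among them CDC20 (0.39 ± 0.04) and ANLN (0.34 ± 0.04), and 4 were lower, among them CCNB2 (-0.35 ± 0.05), shares near those of all tested genes (21.5% higher, 14.7% lower). The higher mitosis count was 3 without wild-type replicate 1, knockout replicate 1 or knockout replicate 3, and the higher S phase count was 1 without knockout replicate 3. The medians of the S phase and mitosis lists, 0.04 and -0.00, changed sign under other scalings.

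Signalling and inflammation lists were mixed, against 21.5% higher and 14.7% lower among all tested genes; the immediate early and p53 counts were near those shares. Of 24 immediate early genes 7 were higher, among them JUN (0.45 ± 0.07), and 6 were lower, among them KLF2 (-0.84 ± 0.08) and MYC (-0.36 ± 0.04). Of 20 NF-kB and cytokine genes 6 were higher and 6 were lower; the higher count was 3 without wild-type replicate 2, and 2 without wild-type replicate 3, knockout replicate 1 or knockout replicate 2. The lower ones included IL1A, at 9.03, 6.38 and 7.34 CPM in wild type and 0.473, 0.586 and 0.457 CPM in the knockout (-3.90 ± 0.41), and IL6 (-1.36 ± 0.30). Of 21 interferon response genes 7 were higher, among them HLA-B (0.46 ± 0.04), and 3 were lower, led by ISG20 (-1.72 ± 0.21). Of 19 apoptosis genes 8 were lower and 4 were higher. TNFRSF10B, the death receptor DR5, was at 203 ± 5.03 CPM against 116 ± 5.09 CPM (-0.81 ± 0.04), and HRK, a BH3-only protein, differed by -2.16 ± 0.21. BAD (0.46 ± 0.06) and BAK1 (0.43 ± 0.06), which promote apoptosis, were higher. Of 16 p53 targets 4 were higher and 3 were lower, none by 2-fold.

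Extracellular matrix genes also went both ways, against 21.5% higher and 14.7% lower among all tested genes. Of 15 collagens 6 were higher, among them COL6A1 (46.8 ± 1.48 against 98.6 ± 1.47 CPM, 1.07 ± 0.05) and COL6A3 (0.88 ± 0.08), and 3 were lower. TNC, the glycoprotein tenascin C, was at 809, 760 and 764 CPM in wild type and at 200, 202 and 199 CPM in the knockout (-1.96 ± 0.03). SPARC (0.66 ± 0.02) and TGFBI, a matrix protein induced by TGF-beta (24.5 ± 1.26 against 63.5 ± 2.02 CPM, 1.37 ± 0.07), were higher. The collagen cross-linking enzyme LOX differed by -0.98 ± 0.08. Among matrix proteases and inhibitors, MMP3 (-1.43 ± 0.16) and SERPINE2 (-1.26 ± 0.11) were lower. The integrin subunits ITGA6 (0.81 ± 0.04) and ITGA4 (1.04 ± 0.12) were higher, and the cadherin CDH1 was lower, at 4.63 ± 0.187 against 1.38 ± 0.251 CPM (-1.75 ± 0.23). Of 7 measured osteoblast-lineage markers, COL1A1, SPARC and VIM were higher and SPP1, ALPL and RUNX2 were lower. COL1A2, at 0.178 CPM in wild type, was not called. Of 7 measured epithelial markers, KRT8 (0.35 ± 0.05), KRT18 (0.165 ± 0.03) and CLDN4 (1.19 ± 0.19) were higher. CDH1 and ESRP1 of that list were lower, and EPCAM and KRT5 were not called.

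Among genes higher in the knockout with more than 3 counts in each genotype, PNMA5 stood furthest from wild type. PNMA5, of a family of onconeuronal antigens (chromosome X, 152988824 to 152994127), was at 1.16, 0.684 and 0.370 CPM in wild type and at 48.7, 51.7 and 46.7 CPM in the knockout (6.07 ± 0.27, adjusted p = 2.23e-32). PRAME, a tumour antigen, was at 31.4, 38.2 and 37.5 CPM against 194.2, 187.6 and 193.7 CPM (2.43 ± 0.05). The cancer-testis genes MAGEA10 and PASD1 differed by 2.85 ± 0.14 and 2.27 ± 0.08. GAGE12H (3.33 ± 0.13) belongs to a family of near-identical copies, so its counts are uncertain. BCR was at 2.04 ± 0.263 CPM against 22.5 ± 1.79 CPM (3.45 ± 0.15). Non-overlap of the libraries was a condition of the choice by largest difference, so it is no added result. It held for 45.5% of all tested genes.

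Other higher genes were KRT75, a keratin, at 6.14, 7.90 and 6.91 CPM against 32.8, 31.3 and 33.4 CPM (2.22 ± 0.12), and STRA6, a retinol transporter (2.12 ± 0.10). Among the 5 genes with the highest CPM values that were higher by at least 2-fold, a choice that favours long transcripts, were FSCN1, the actin-bundling protein fascin, at 112 ± 6.67 CPM against 338 ± 13.1 CPM (1.58 ± 0.04), and the neuropeptide precursor VGF (1.16 ± 0.05). PCSK5, a proprotein convertase (1.78 ± 0.10), S100A2 (1.07 ± 0.06) and KIAA1522 (1.27 ± 0.05) were the others. The same choice among genes lower by at least 2-fold gave HSPA5, GARS, TXNRD1, TNC and SLC7A5.

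Some genes had almost no counts in one genotype, and for these no fitted value is given. Of the genes called, 64 lower and 42 higher ones had 3 or fewer counts over one group. GABRG1, a GABA receptor subunit, had 698 counts over the 3 wild-type libraries and 0 in the knockout, at least 173-fold lower when 3 counts over the group are taken as the floor. PAPPA2, a protease of insulin-like growth factor binding proteins, had 1092 against 1 (a ratio of 811, exact 95% interval 145 to 32060). ESRP1, an epithelial splicing regulator, had 181 against 0, at least 44.8-fold lower. ASNSP1, a pseudogene of ASNS whose reads may be shared with it, had 354 against 1, and the transcript RP11-495P10.5 had 277 against 3 (a ratio of 68.6, interval 23.2 to 334.5). In the other direction SLC30A8, a zinc transporter, had 0 counts in wild type and 149 in the knockout, at least 66.9-fold higher. The transcripts CH507-210P18.1 and RP11-651P23.4 had 0 in wild type and 68 and 66 in the knockout, at least 30.5-fold and 29.6-fold higher. LMTK3, a kinase, had 3 against 41 (a ratio of 18.4, interval 5.87 to 92.9). Untreated, GABRG1 had 70 against 14 counts, PAPPA2 103 against 8, SLC30A8 7 against 260 and LMTK3 64 against 231. Counting error is all that these floors and intervals include.

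The same contrast in untreated cells comes from libraries that the 16 h contrast does not use. Before its values are used, 1 limit applies: the 3 untreated knockout count columns did not match the TPM columns of the same name best, whereas the other 33 libraries did, all 6 at 16 h included. The third of those TPM columns matched no count column closely (best correlation 0.522 over 10521 genes), and the counts are used as labelled. From the counts, 2213 genes (11.6%) were higher and 2267 (11.9%) were lower in the untreated knockout, and 344 (1.81%) and 133 (0.698%) by at least 2-fold. Leaving out 1 library at a time gave between 1628 and 2082 higher and between 1703 and 2052 lower. Of the 661 genes lower by at least 2-fold at 16 h, 70 were so at 0 h, which is 10.6% of the 16 h list and 52.6% of the 0 h list. Of the 454 genes higher by at least 2-fold at 16 h, 141 were so at 0 h, 31.1% and 41.0% of the 2 lists.

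The difference between the contrasts was tested directly, as the 16 h difference minus the 0 h difference. It was higher for 3179 genes (16.7%) and lower for 2104 (11%), of which 238 (1.25%) and 587 (3.08%) by at least 2-fold. With log2(TPM + 1), the higher share was 48.3% in place of 60.2%. PNMA5 differed by 5.995 ± 0.30 at 0 h, with an interaction of 0.08 ± 0.40 (adjusted p = 0.93). MAGEA10 (3.13 untreated), LINC01029 (2.56) and PASD1 (2.39) had interactions of -0.28, -0.15 and -0.11, which did not pass the test. CHAC1 was already low in the untreated knockout, at 0.14 against 8.26 CPM, and its interaction did not pass (-1.46 ± 0.89, adjusted p = 0.33). CEBPG differed by -0.88 ± 0.08 untreated and -0.93 ± 0.05 at 16 h (interaction -0.05 ± 0.09, adjusted p = 0.76). A p above the threshold does not show that the 2 differences are equal.

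For other genes the 16 h difference was far from the untreated one. OLAH, a thioesterase of fatty acid synthesis, was at 1.31 CPM in untreated wild type and 2.62 CPM in the untreated knockout (0.89 ± 0.24, adjusted p = 0.003). At 16 h OLAH was at 53.8, 52.0 and 48.2 CPM in wild type and at 0.675, 0.704 and 0.343 CPM in the knockout (-6.41 ± 0.32), so the direction turned and the difference of the differences was -7.31 ± 0.40. ANK2, which encodes the membrane adaptor ankyrin B, was at 3.53 and 2.42 CPM untreated and at 50.8 ± 0.91 against 0.609 ± 0.231 CPM at 16 h (-6.32 ± 0.33). DDIT4 differed by -0.60 ± 0.08 untreated and by -5.74 at 16 h, an interaction of -5.14 ± 0.18. HSPA5 differed by -0.18 ± 0.03 untreated, at 636 against 722 CPM, and its interaction was -1.78 ± 0.04. ATF3 (0.03 ± 0.10) and CEBPB (0.05 ± 0.06) did not pass the test untreated, and their interactions were -1.67 ± 0.16 and -1.77 ± 0.09.

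**Figure D4:**
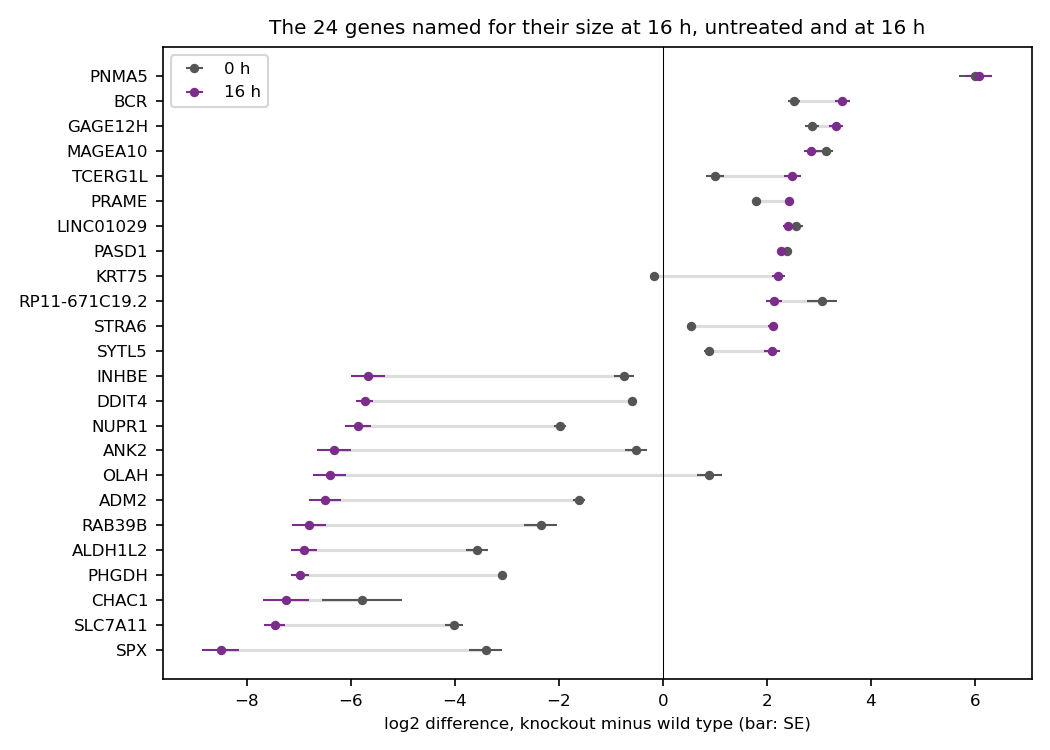
Log2 difference (horizontal axis, knockout minus wild type, bar for SE) untreated (grey) and at 16 h (purple) for the 12 lower and 12 higher genes with the largest 16 h differences (rows). The grey points of PNMA5, MAGEA10, PASD1 and LINC01029 lie close to the purple ones, those of SLC7A11, CHAC1 and PHGDH lie part of the way, and that of OLAH lies on the other side of 0.

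Some genes had a 16 h difference above the untreated one. KRT75 was at 78.2 and 69.6 CPM untreated and at 6.98 ± 0.883 and 32.5 ± 1.06 CPM at 16 h, with an interaction of 2.40 ± 0.14. Both genotypes were lower at 16 h than untreated for this gene. The LIM protein LMCD1 (11.1 ± 0.522 against 40.1 ± 1.57 CPM at 16 h, interaction 1.73 ± 0.11) and the ligand WNT7B (2.58 ± 0.272 against 7.89 ± 0.889 CPM, 1.86 ± 0.16) showed the same order of levels. EDN2, which encodes endothelin 2, was at 33.6 and 16.1 CPM untreated and at 1.07 and 2.28 CPM at 16 h (2.12 ± 0.36).

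Several lists stood differently untreated. All 27 S phase genes and 23 of 24 mitosis genes were lower in the untreated knockout, with medians of -0.48 and -0.35; 11.9% of all tested genes were lower. The 16 h difference was above the 0 h difference for 24 S phase and 20 mitosis genes, against 16.7% of all tested genes. In the untreated knockout 17 of 23 lysosomal and 18 of 23 cholesterol genes were higher, against 11.6% of all tested genes. For 15 of the lysosomal genes the 16 h difference was below the 0 h one, against 11% of all tested genes. Glycolysis went from 10 of 18 lower and 2 higher untreated to 3 lower and 10 higher at 16 h, and 12 interactions were positive. Ribosome biogenesis had 11 of 25 genes lower untreated and 17 positive interactions. Calls were also common untreated in lists described above for 16 h. Lower were 15 of 20 cytosolic tRNA synthetases, 13 of 16 amino acid synthesis genes and 9 of 13 folate genes, and 1 in each was higher. Their untreated medians were -0.31, -0.40 and -0.32, against -0.73, -0.715 and -0.09 at 16 h.

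The genotype difference at 16 h was also set against those at 8 and 24 h, with the 16 h libraries shared by both tests. Between 8 and 16 h it rose for 1317 genes (6.92%) and fell for 1228 (6.45%), where the higher share of 51.7% was 38.3% in a fit on those groups alone. Between 16 and 24 h it rose for 37 (0.194%) and fell for 89 (0.467%); without the filter on low counts the 2 numbers were 117 and 107. OLAH moved from 0.89 at 0 h to 0.04 at 4 h, -2.85 at 8 h, -6.41 at 16 h and -6.75 at 24 h. GDF15 went from 0.30 at 0 h to -0.73 at 4 h, -1.88 at 8 h and -2.73 at 16 h, and the further step to -3.31 at 24 h did not pass the test (adjusted p = 0.26). The SESN2 difference was -3.98 at 4 h, -3.49 at 8 h, -2.68 at 16 h and -3.18 at 24 h. Both its step from 8 to 16 h (0.81 ± 0.10) and that from 16 to 24 h (-0.50 ± 0.10, adjusted p = 0.0079) passed. CEBPB continued down by 0.38 from 16 to 24 h (adjusted p = 0.025).

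**Figure D5:**
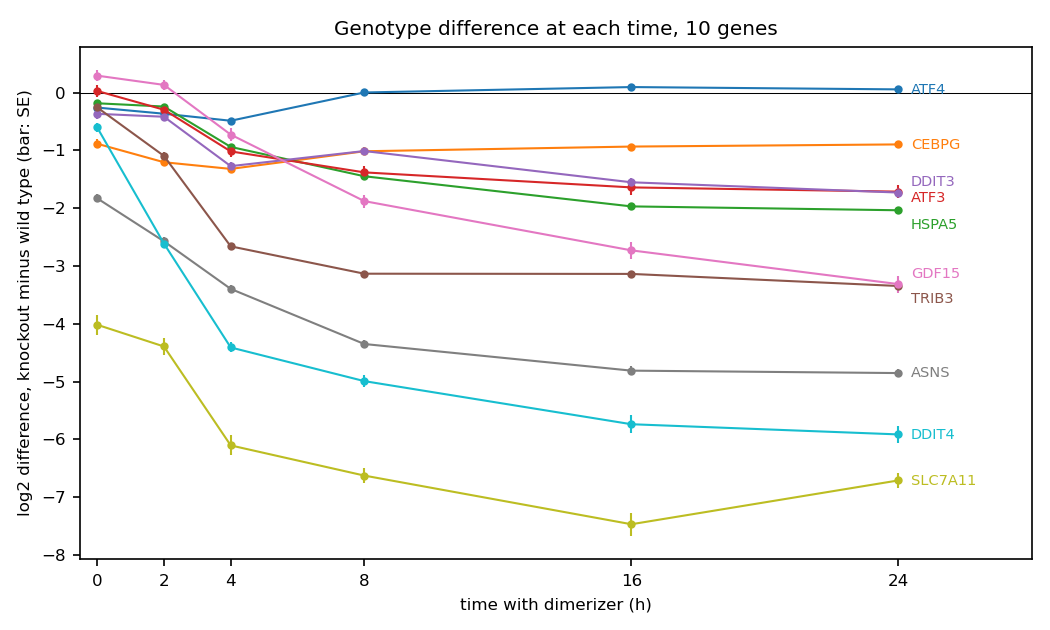
Log2 difference between the genotypes (vertical axis, knockout minus wild type, bar for SE) at 0, 2, 4, 8, 16 and 24 h of dimerizer (horizontal axis) for 10 genes. ATF4 stays within 0.49 of 0, CEBPG stays between -1.32 and -0.88, and DDIT4 goes from -0.60 untreated to -4.41 at 4 h and -5.74 at 16 h.

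By gene type, 26% of 12535 protein-coding genes were higher and 16% were lower at 16 h. Among 1177 lincRNAs the shares were 9.09% and 9.69%, and among 1186 antisense genes 4.38% and 9.87%. By chromosome, the tested genes of chromosome 3 were lower in 23.6% and higher in 17.2% of 857 cases at 16 h. Their median was -0.03 at 16 h and already -0.044 untreated. The medians of the other chromosomes were between 0.01 and 0.08 at 16 h and between -0.038 and 0.032 untreated.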

How the data were processed

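RNA was measured by sequencing of directional total RNA libraries, 3 per genotype and time. The authors deposited estimated counts per gene from Salmon 0.9.1 on GRCh38, after read checks with FastQC 0.11.5, per the submitters' processing notes, and the deposited TPM values per gene from the same libraries. The estimated counts were rounded to whole numbers. Genes were kept by edgeR's filterByExpr over 12 groups (19043 of the 45119 genes with any count), scaled by TMM and fitted with edgeR 4.0.16 in R 4.3.3 as group means over all 36 libraries, without covariates. The quasi-likelihood F-test was adjusted by Benjamini-Hochberg over all tested genes, with calls under 0.05, and errors of log2 differences are Wald standard errors. A fold against a group at 0 counts uses a floor of 3 counts over the group, and intervals are exact at 95%. Gene positions are from GENCODE 29, matched for 53330 of 57665 identifiers. Genes sharing a symbol (1911) were told apart by identifier.

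Library totals at 16 h ran from 8651716 to 16265056 counts. On simulated counts for the 16 h comparison (19043 genes), 50% of 100 genes changed by a log2 of 0.50 and 72% of 100 changed by 1.00 were recovered, and 1 of 18843 unchanged genes was called. Far fewer genes were changed there than were called at 16 h, which makes the adjusted p cut stricter. The shares are therefore not those of the real comparison. Chi-square per degree of freedom was 1.36 to 1.91 between the 16 h replicates, so none was treated as a repeat deposit.

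Named genes were an 18-gene stress panel, the 12 largest differences per direction among genes of at least 5 CPM, 4 near-silent genes, 6 of the largest 16 h minus 0 h differences and 5 of the 2-fold changes with the highest CPM per direction, and up to 4 called members of each list in its majority and 3 in its minority direction. The 12 largest were called genes with more than 3 counts in each genotype and no overlap between the libraries of the genotypes. The members and lists were chosen with earlier results of these data known. Alternatives were DESeq2 1.42.0, its size factors, no filter, a fit on the contrast's groups alone, a replicate block, limma 3.58.1 on log2(TPM + 1) and log2(TPM + 0.1), and leaving out each library. The fit without the third untreated knockout TPM column was added after seeing the data. Dose values of the dimerizer were left out because the labels give no unit.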

Additional observations from a re-analysis of the deposited data

Results flagged for a closer look

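The genotype difference itself differed between 16 h and untreated cells by the interaction test for 3179 genes upward and 2104 downward (edgeR quasi-likelihood, adjusted p under 0.05). Between 8 and 16 h the counts were 1317 and 1228, and between 16 and 24 h they were 37 and 89. Among the panel genes the 16 h difference minus the untreated one was 0.35 for ATF4 and -0.22 for EIF2AK3. It was -1.67 for ATF3, -1.15 for ATF5, -1.19 for DDIT3 and -1.77 for CEBPB. It was -1.23 for PPP1R15A, -1.78 for HSPA5, -2.08 for SESN2, -2.52 for VLDLR and -2.88 for TRIB3. For PSAT1 it was -2.94, for ASNS -2.98, for GDF15 -3.02, for SLC7A11 -3.45 and for DDIT4 -5.14. Among the genes with the largest such values it was -4.92 for INHBE, -5.09 for SPX, -5.81 for ANK2 and -7.31 for OLAH. PAPPA2, with 1 count in the knockout at 16 h, passed the same edgeR test at an adjusted p of 1.1e-05. In the other direction the value was 2.40 for KRT75, 2.12 for EDN2, 1.86 for WNT7B, 1.73 for LMCD1 and 1.72 for CSRP3. AC009506.1, whose reads may overlap another gene, also had 1.86.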

How the results depend on the processing

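No named gene changed sign with a call, but the balance of higher and lower calls turned in some settings. Limits are the 3 libraries per group, the untreated knockout columns whose counts and TPM do not match, and low counts near the floor. In the order higher and lower, the 16 h comparison gave 3264 and 3276 genes on its own groups alone, 2012 and 1581 with limma on log2(TPM + 1), and 2072 and 1623 on log2(TPM + 0.1). Untreated, the same 2 settings gave 801 and 641, and 703 and 603, or 1033 and 990 without the third untreated knockout TPM column. For the 16 h minus 0 h difference they gave 1092 and 1171, and 1121 and 1138, or 1458 and 1401 without that column. For 16 h minus 8 h they gave 216 and 230, and 210 and 230. For 24 h minus 16 h they gave 0 and 5, and 1 and 2, where edgeR on counts gave 37 and 89. That last pair was 117 and 107 without the filter, 62 on the groups of the contrast alone, and 50 and 133 with DESeq2. The higher share of the 16 h minus 8 h calls was 41.1% without the filter, and that of 24 h minus 16 h was 52.2% in place of 29.4%. Leaving out 1 library gave 3327 to 3790 and 2428 to 2574 at 16 h, 1628 to 2082 and 1703 to 2052 untreated, and 2505 to 3068 and 1829 to 2164 for 16 h minus 0 h. It gave 1024 to 1224 and 1000 to 1209 for 16 h minus 8 h. It gave 22 to 40 and 48 to 85 for 24 h minus 16 h, lowest without wild-type 16 h replicate 3 and without knockout 24 h replicate 2. Same-numbered 16 h replicates did not deviate together (correlations 0.043, -0.010 and 0.083), and with the replicate block the 16 h counts were 4128 and 2803. Blocked, the other pairs were 2241 and 2291 untreated, 3210 and 2108, 1342 and 1260, and 45 and 103. On the groups of the contrast alone the 16 h minus 8 h counts were 1035 and 1669. Of the 257 named genes, 75 lost their call at 16 h under at least 1 of 13 alternatives. Of 76 list counts, 39 moved by over 1.5 times under at least 1 alternative, most often with TPM. The cause was not tested.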
